A study of Mus musculus with 6 samples.

Results

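The chemokine receptor genes Ccr8, Cx3cr1, Cxcr6, Cxcr3, Ccr9, Ccr7, Ccr4, Ccr2 and Cxcr4 were followed in sorted thymic NKT cells of the mouse. All probes of an Illumina bead array that its annotation assigns to these 9 genes were taken, which gave 10 probes of 45263, or 9 of 19057 named genes. Ccr2 had a pair of probes and every other gene had 1. NKT cells are T lymphocytes that recognise lipids on CD1d, and the cells measured were mature thymic ones sorted as CD44+ and NK1.1+ from male C57BL/6 mice. They were parted into cells with and without surface CD103, the integrin alpha E chain, and the series design calls the 3 arrays of either population biological replicates. The labels name no allele, treatment, age or pooling of animals for either population. The series title is about DOCK8, an exchange factor for the actin regulator CDC42, and the labels of these samples name no change in it. The comparison asks which receptors differ in transcript level between CD103+ and CD103- cells.

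Chemokine receptors are G protein-coupled receptors at the cell surface. Binding of a secreted or membrane-bound chemokine activates inhibitory G proteins and turns the cell's actin cytoskeleton and integrins towards the source. In the thymus such receptors place developing cells in cortex or medulla and mark cells that will leave or stay. NKT cells that stay in tissues are known for CXCR6 and CXCR3.

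The 6 arrays differed in brightness, with mean signals of 501.6 to 825.9 for CD103+ cells, and for CD103- cells 526.2 on array 1 and 276.5 and 277.4 on the dimmer arrays. The share of probes detected was 38.3% to 40.5% in CD103+ and 34.0% to 38.8% in CD103- cells. A probe counted as detected on an array at a detection p under 0.05. Itgae, which encodes CD103, was higher on the CD103+ arrays (log2 difference 4.73 on its brightest probe, adjusted p = 9.50e-05). Cd44 at -0.10 (adjusted p = 0.794) and Klrb1c, which encodes NK1.1, at -0.46 (adjusted p = 0.332) did not pass, and all 8 genes fixed as marks of the sorted cells were detected on all arrays. Zbtb16 at -0.68 and Il2rb at -0.66, named after their values were seen, did not pass either (adjusted p = 0.0753 and 0.152 in limma). Groups did not overlap for 3 of the 8 as higher and 3 as lower, beside 23.2% of all tested genes in either direction. Without background correction, with array weights or with a stricter detection filter, 1 of the 8 passed as lower. Precision is limited by there being 3 arrays of either population.

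Ccr8 and Cx3cr1 were higher in CD103+ cells, Ccr8 by 3.40-fold and Cx3cr1 by 3.98-fold. The Cx3cr1 probe was near background in CD103- cells, so the size of its difference is uncertain, and its log2 difference of 1.99 was 0.67 without background correction. No other receptor passed the test. Of the 10 receptor probes 7 were tested, 1 each for Ccr8, Cx3cr1, Cxcr6, Cxcr3, Ccr7, Ccr2 and Cxcr4, and 2 of them passed, where 1.18% of all 17462 tested probes did. Both were higher and 0 were lower, beside 0.928% and 0.252% of all tested probes. The 2 receptors became 1 with median scaling or when CD103+ array 1 was omitted, and 0 when CD103+ array 2 or 3 was omitted or array brightness was a covariate. Over all probes 206 passed, which a replicate block turned to 83, a brightness covariate to 7 and the omission of 1 array to between 52 and 857. At an unadjusted p under 0.05 stood 3 of the 7, beside 15.1% of all. Tests were made with limma on background-corrected, quantile-normalized log2 signals, and the threshold was an adjusted p of 0.05 over all tested probes. Probes were tested if detected on at least 3 of the 6 arrays. The other 3 probes, those of Ccr9 and Ccr4 and the dimmer one of Ccr2, were detected on no array. Over the 7 genes tested the median log2 difference was -0.14, beside 0.05 over all 8999 genes. In these sorted pools, fewer cells with a transcript and less of it per cell cannot be told apart.

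**Figure D1:**
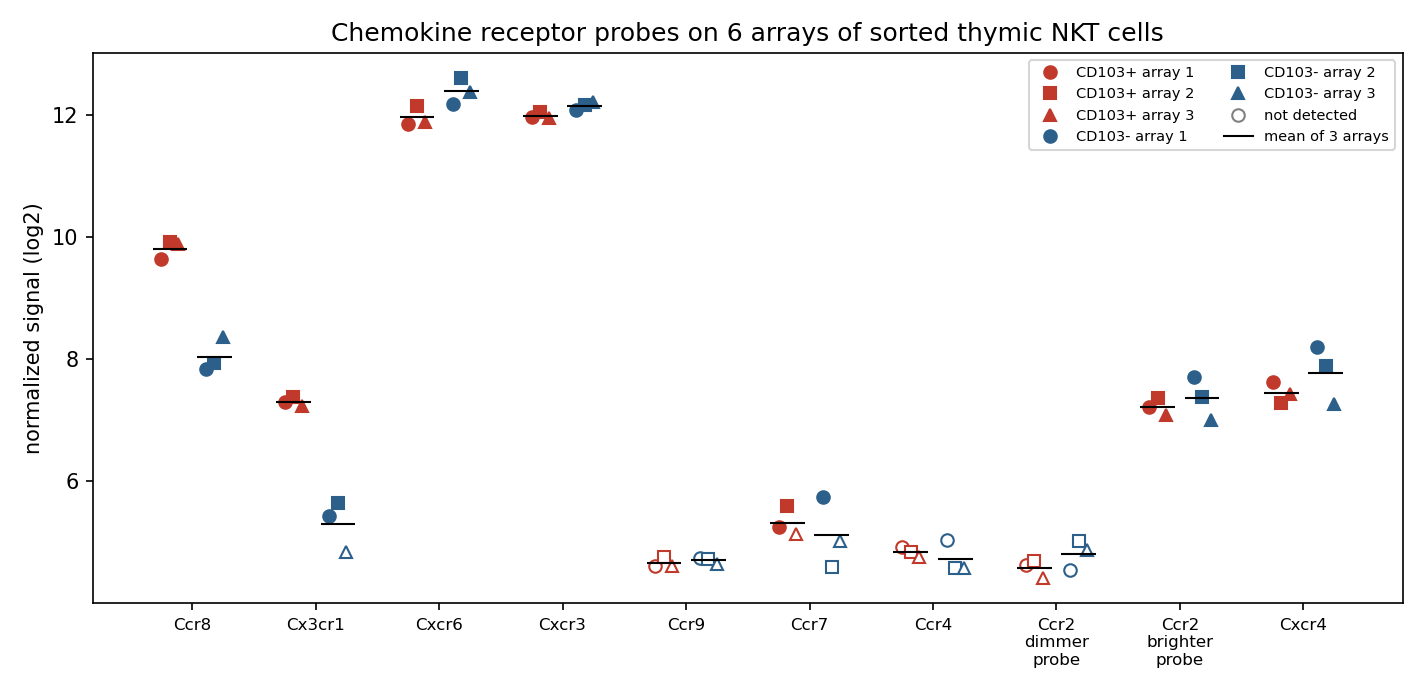
Normalized log2 signal of each of the 10 receptor probes on each array, with CD103+ arrays in red, CD103- arrays in blue, open symbols where the probe was not detected and bars at the mean of 3 arrays. The CD103+ arrays lie above the CD103- arrays for Ccr8 (9.81 against 8.04 on average) and Cx3cr1 (7.30 against 5.31), while Ccr9, Ccr4 and the dimmer Ccr2 probe hold open symbols throughout; levels of different probes are not comparable.

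Ccr8 encodes the receptor for the chemokine CCL1 and, in mice, CCL8, and is found on T helper 2 cells, regulatory T cells and skin-homing T cells. Its probe, ILMN_2724465, had normalized log2 signals of 9.63, 9.91 and 9.88 on CD103+ arrays 1, 2 and 3. On CD103- arrays 1, 2 and 3 it had 7.83, 7.93 and 8.35. All CD103+ arrays lay above all CD103- arrays, and the probe was detected on all 6. The means were 9.81 ± 0.15 and 8.04 ± 0.28 (SD, n = 3 per group). The log2 difference was 1.77 (SE 0.185, 95% interval 1.33 to 2.20), with an adjusted p of 0.00786 in limma. Before any correction, all CD103+ arrays also lay above all CD103- arrays. The uncorrected signals were 1173, 2094 and 1058 on the CD103+ arrays, and 363 on CD103- array 1. The mean of that array over all probes lay within the range of the CD103+ arrays. The dim CD103- arrays 2 and 3 gave 197 and 226. With those 2 arrays left out the log2 difference was 1.97 (adjusted p = 0.0217, 3.46e-04 to 0.169 over 17 alternatives). That fit has 1 CD103- array, which is assumed to vary like the CD103+ arrays. Without CD103+ array 2 or 3 Ccr8 did not pass, at adjusted p of 0.0554 and 0.0579, nor did it with array brightness as a covariate, at 0.169.

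Cx3cr1 encodes the receptor for the membrane-bound chemokine fractalkine and is known from resident macrophages, monocytes, NK cells and cytotoxic T cells. Its probe, ILMN_2625125, had log2 signals of 7.29, 7.37 and 7.24 on CD103+ arrays 1, 2 and 3. On the CD103- arrays it had 5.44, 5.64 and 4.85. The CD103+ arrays lay close together and above all CD103- arrays. There the probe was near background: it was narrowly detected on arrays 1 and 2, with detection values of 0.0342 and 0.0491, and not detected on array 3, with 0.267. The means were 7.30 ± 0.07 and 5.31 ± 0.41 (SD, n = 3 per group), and the log2 difference was 1.99 (SE 0.218, 95% interval 1.48 to 2.50, adjusted p = 0.00903 in limma). With the undetected array set to the lowest normalized signal that any detected probe had there, the log2 difference was 1.77, or 3.40-fold. Without background correction it was 0.67 (adjusted p = 0.00376). The size of the Cx3cr1 difference thus moved with the treatment of the background, and its direction was the same in all 17 alternatives. Leaving out CD103+ array 1, 2 or 3 put the adjusted p at 0.0643, 0.0639 and 0.0594, median scaling at 0.0531 and array brightness as a covariate at 0.253 (0.00144 to 0.253 over 17 alternatives). With the dim CD103- arrays left out it was 0.0190, in a fit that rests on 1 CD103- array near background and assumes that it varies like the CD103+ arrays.

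**Figure D2:**
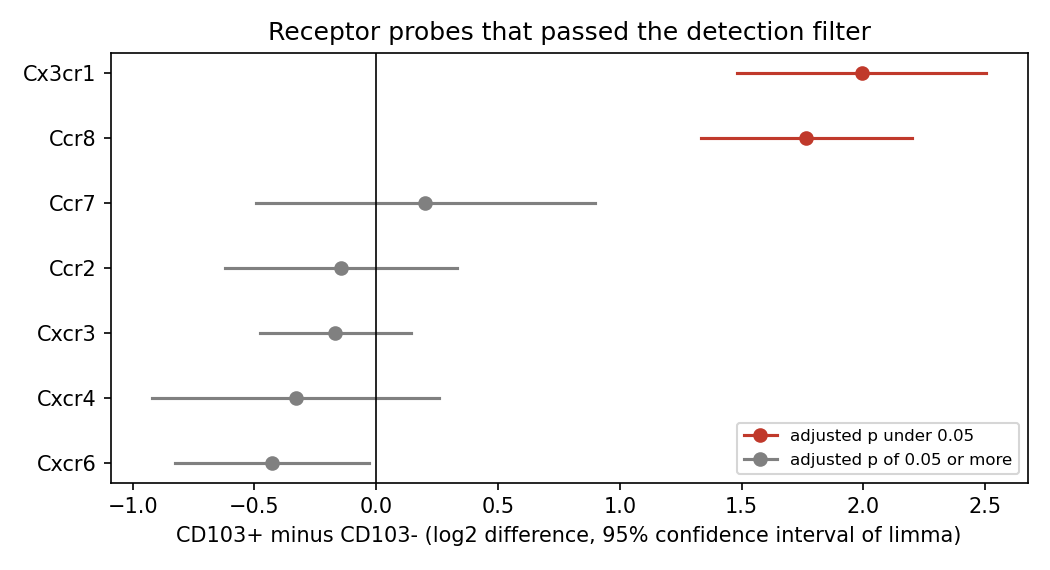
Log2 difference, CD103+ minus CD103-, with its 95% confidence interval for the 7 receptor probes tested, in red where the adjusted p was under 0.05. The intervals of Cx3cr1 (1.48 to 2.50) and Ccr8 (1.33 to 2.20) lie apart from those of the other 5 probes.

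Ccr8 and Cx3cr1 are neighbours on chromosome 9. In the RefSeq annotation of GRCm38.p6, Cx3cr1 lies on the minus strand at chr9:120048683-120068296 and Ccr8 on the plus strand at chr9:120092133-120094906. Their starts face each other at a distance of 23.8 kb, with 0 annotated genes between them. Of the 9 receptors 6 lie on chromosome 9. Ccr9, Cxcr6 and Ccr2 share a stretch of 342 kb at chr9:123767211-124109140, more than 3675 kb from Ccr8, and Ccr4 lies at chr9:114490316-114505476 on the other side. A window reaching 250 kb beyond the starts of Cx3cr1 and Ccr8, chosen after the values were seen, holds all or part of 10 other protein-coding genes. Of these 9 had a named probe and 3 could be tested. The 3 were Csrnp1, a nuclear protein (log2 difference 0.29, adjusted p = 0.403), Gorasp1, a Golgi stacking protein (0.26, adjusted p = 0.401), and Slc25a38, a mitochondrial carrier (0.19, adjusted p = 0.548). None of the 3 passed limma's test. For each of the 3, all CD103+ arrays nonetheless lay above all CD103- arrays. Groups did not overlap in either direction for 21.9% of all tested probes. Whether the 2 receptors are regulated together was not tested.

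**Figure D3:**
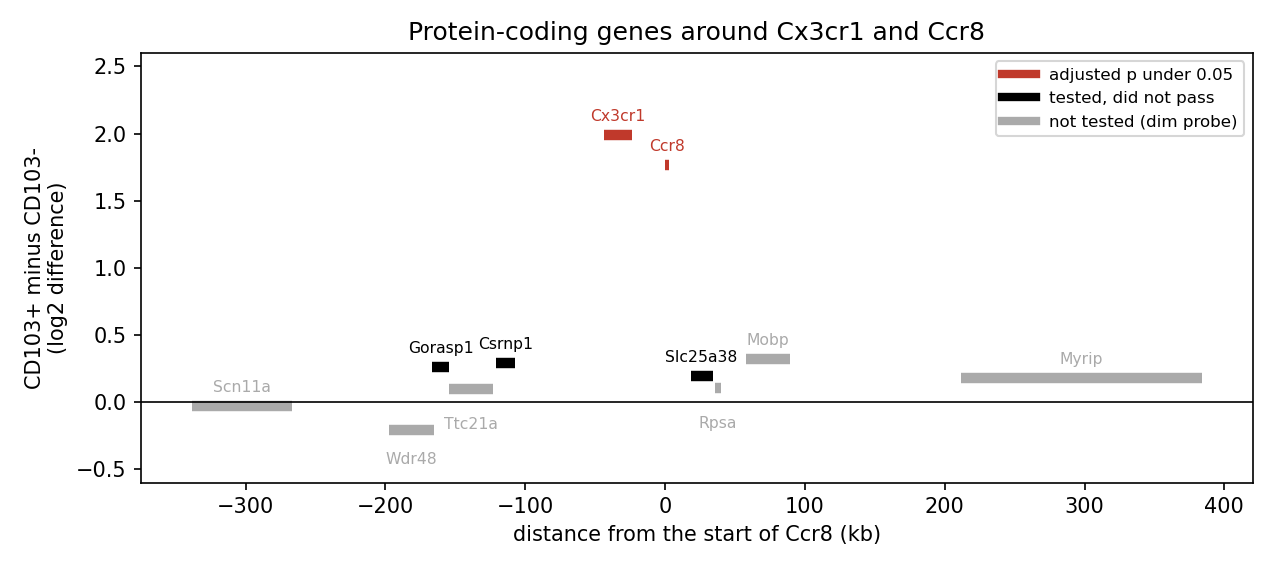
Log2 difference, CD103+ minus CD103-, of protein-coding genes around Ccr8 against the distance from its start in kb, each bar spanning a gene. Cx3cr1 (1.99) and Ccr8 (1.77) in red stand above Csrnp1 (0.29), Gorasp1 (0.26) and Slc25a38 (0.19) in black; grey genes were too dim to be tested.

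The 250 bases before the start of both neighbours are shown because their transcripts were higher together, and those of Cxcr6 and Cxcr3 because these receptors were detected on all arrays and did not pass. Sequences are from RefSeq (GRCm38.p6), 5′ to 3′ on the gene's strand, at chr9:120091883-120092132 (plus) for Ccr8, chr9:120068297-120068546 (minus) for Cx3cr1, chr9:123806227-123806476 (plus) for Cxcr6 and chrX:101734148-101734397 (minus) for Cxcr3. Capitals mark matches on either strand to the letters TGNGGT and to CAGAC, the box bound by SMAD proteins. TGNGGT, with any base as N, is a looser form of the core bound by RUNX factors, which has C or T there. RUNX3 and the SMAD pathway of TGF-beta are known to act on Itgae.
Ccr8: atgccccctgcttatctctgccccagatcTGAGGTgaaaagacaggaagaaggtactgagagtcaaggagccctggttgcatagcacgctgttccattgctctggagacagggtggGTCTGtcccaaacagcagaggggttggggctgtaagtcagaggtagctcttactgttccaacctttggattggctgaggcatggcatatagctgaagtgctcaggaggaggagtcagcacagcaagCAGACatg
Cx3cr1: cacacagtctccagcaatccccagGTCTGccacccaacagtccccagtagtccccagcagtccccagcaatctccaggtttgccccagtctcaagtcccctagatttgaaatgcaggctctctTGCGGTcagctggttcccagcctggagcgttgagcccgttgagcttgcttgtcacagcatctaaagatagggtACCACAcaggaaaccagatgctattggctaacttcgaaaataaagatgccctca
Cxcr6: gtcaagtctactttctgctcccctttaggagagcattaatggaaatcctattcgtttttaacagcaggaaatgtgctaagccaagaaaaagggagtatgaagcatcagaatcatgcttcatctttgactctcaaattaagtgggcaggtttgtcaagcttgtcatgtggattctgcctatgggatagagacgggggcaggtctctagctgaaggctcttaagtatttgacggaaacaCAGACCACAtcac
Cxcr3: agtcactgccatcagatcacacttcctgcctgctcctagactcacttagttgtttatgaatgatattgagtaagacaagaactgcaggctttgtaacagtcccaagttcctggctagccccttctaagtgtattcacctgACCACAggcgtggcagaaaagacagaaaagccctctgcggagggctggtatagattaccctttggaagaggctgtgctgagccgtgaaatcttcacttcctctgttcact

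The RUNX letters occurred once before Ccr8, starting 221 bases from the start, and before Cx3cr1 at 127 and 54 bases. The match before Ccr8 reads TGAGGT, with neither C nor T as N. They occurred at 10 bases before Cxcr6 and at 110 bases before Cxcr3, and 40.1% of 32851 promoter windows of this length hold them. The SMAD letters occurred before Ccr8 at 134 and 8 bases, before Cx3cr1 at 226 bases and before Cxcr6 at 13 bases, where they overlap the RUNX letters. No match stood before Cxcr3, and 42.2% of windows hold the SMAD letters. The T-box letters AGGTGT and the AP-1 letters TGANTCA, searched on both strands, had no match in these 4 windows, and 11.8% and 6.75% of all windows hold them. Both sets of letters found before Ccr8 and Cx3cr1 are thus common, and a match is a description of the sequence. The table had an entry for 8 of the 9 receptors, all but Ccr7.

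Cxcr6 and Cxcr3, the receptors that mark effector NKT cells, were detected on all arrays and neither passed the test. Cxcr6 encodes the receptor for CXCL16. Its probe had log2 signals of 11.85, 12.14 and 11.87 on CD103+ arrays 1, 2 and 3, and of 12.18, 12.60 and 12.37 on the CD103- arrays. All CD103+ arrays lay below all CD103- arrays, by a narrow margin between 12.14 and 12.18. The means were 11.95 ± 0.16 and 12.38 ± 0.21 (SD, n = 3 per group), and the log2 difference was -0.43 (SE 0.170, 95% interval -0.83 to -0.03) with an unadjusted p of 0.0379 and an adjusted p of 0.302 in limma.

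Cxcr3 encodes the receptor for CXCL9, CXCL10 and CXCL11 and is a target of T-bet. Its log2 signals were 11.97, 12.04 and 11.94 on the CD103+ arrays and 12.08, 12.16 and 12.21 on the CD103- arrays. The groups did not overlap, yet the log2 difference was only -0.17 (SE 0.132, 95% interval -0.48 to 0.14, adjusted p = 0.588 in limma). The means were 11.98 ± 0.05 and 12.15 ± 0.06 (SD, n = 3 per group). The interval holds no fall as large as the rise of Ccr8. With Ccr8 and Cx3cr1, 4 of the 7 tested receptor probes had groups that did not overlap, 2 higher and 2 lower, beside 21.9% of all tested probes, with 8.92% lower.

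Ccr2 and Ccr4 are receptors of inflamed tissue: CCR2 draws monocytes and effector T cells towards CCL2, and CCR4 draws T helper 2 and regulatory T cells towards CCL17 and CCL22. The brighter Ccr2 probe, ILMN_1222795, had log2 signals of 7.21, 7.37 and 7.08 on CD103+ arrays 1, 2 and 3 and of 7.70, 7.38 and 7.01 on the CD103- arrays. The CD103- arrays spanned the CD103+ ones, and the log2 difference was -0.14 (SE 0.204, 95% interval -0.62 to 0.33, adjusted p = 0.774 in limma). The Ccr2 probes disagreed on detection. The dimmer one, ILMN_1226563, is annotated to the RefSeq transcript and was detected on no array, with log2 signals of 4.42 to 5.02 and detection p of 0.198 to 0.980. The brighter one is annotated to a cDNA clone. Which of them reports the Ccr2 messenger RNA was not tested. The Ccr4 probe had log2 signals of 4.58 to 5.04 and detection p of 0.10 to 0.68, so it was at background in both populations.

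Ccr9, Ccr7 and Cxcr4 guide cells within the thymus and out of it. CCR9 binds CCL25 and is known from cortical thymocytes and gut-homing T cells. Its probe was detected on no array, with log2 signals of 4.61 to 4.76 and detection p of 0.253 to 0.528. CCR7 binds CCL19 and CCL21 and leads thymocytes to the medulla and T cells to lymph nodes. Its probe had log2 signals of 5.25, 5.59 and 5.13 on CD103+ arrays 1, 2 and 3 and of 5.75, 4.59 and 5.03 on the CD103- arrays. It was detected on CD103+ arrays 1 and 2 and on CD103- array 1, so it passed the filter with the fewest arrays allowed. The groups overlapped, and the log2 difference was 0.20 (SE 0.297, 95% interval -0.50 to 0.90, adjusted p = 0.785 in limma). Its sign changed in 5 of 16 alternatives, among them median scaling at -0.72.

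CXCR4 binds CXCL12 and holds thymocytes in the cortex and lymphocytes in the bone marrow. The Cxcr4 probe had log2 signals of 7.63, 7.29 and 7.43 on the CD103+ arrays and of 8.20, 7.88 and 7.26 on the CD103- arrays. CD103- array 3 lay below all CD103+ arrays while the other CD103- arrays lay above them. The log2 difference was -0.33 (SE 0.251, 95% interval -0.92 to 0.26, adjusted p = 0.573 in limma). For Cxcr6, Cxcr3, Ccr2, Ccr7 and Cxcr4 a p that missed the threshold does not show equal levels, and their intervals give the changes these arrays leave possible.

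**Figure D4:**
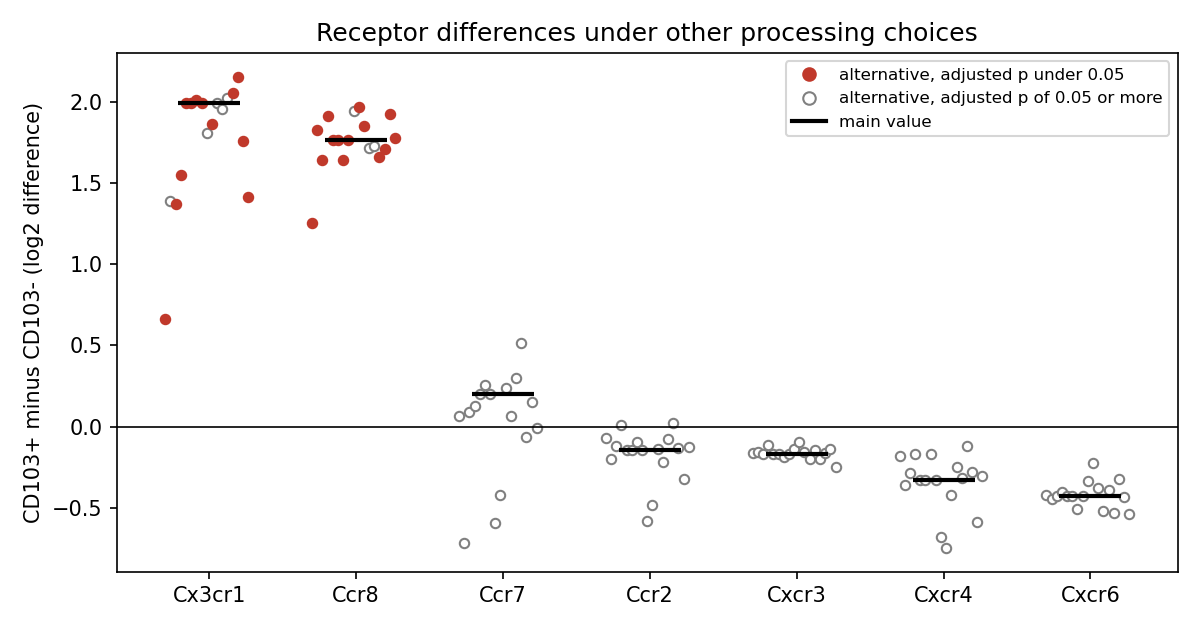
Log2 difference, CD103+ minus CD103-, of the 7 tested receptor probes under each alternative, 17 for all but Ccr7 with 16, in filled red where the adjusted p was under 0.05, with a bar at the main value. Ccr8 stays between 1.25 and 1.97 and Cx3cr1 between 0.67 and 2.16, while no point of the other 5 probes is filled.

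Some genes fixed as marks of other cell types also differed between the sorted populations. Of 12 genes fixed as macrophage marks 11 were on the array and 9 were tested, and 8 of these were higher in CD103+ cells and 0 lower, beside 1.16% of all tested genes higher and 1.38% called in either direction. With the dim CD103- arrays left out, which again leaves 1 CD103- array with no spread of its own, 7 of the 9 passed, with the replicate block 6, with median scaling 4 and with array brightness as a covariate 0. The summed normalized signal of the 11, on a linear scale, was 2811 to 3574 on the CD103+ arrays and 337 to 379 on the CD103- arrays. Of the 11, 9 to 10 were detected on the CD103+ arrays and 1 to 3 on the CD103- arrays. The CD103- sums thus hold mostly background, and their ratio to the CD103+ sums is not a measured size. Of the 9, 6 were detected on no CD103- array and so entered the test only through CD103+ cells, the complement gene C1qb, the receptor Adgre1 and the adhesion molecule Vcam1 among them, while Csf1r, which encodes the receptor for macrophage growth factor, did not pass (0.31, adjusted p = 0.545) and Siglec1 was detected on no array. C1qb had log2 signals of 8.83, 7.74 and 8.86 on CD103+ arrays 1, 2 and 3, and Vcam1 9.26, 7.76 and 8.80. Lyz2, which encodes lysozyme, had 10.16, 10.51 and 10.20. Among the CD103+ arrays, 7 of the 9 genes were lowest on array 2 and the other 2, Lyz2 and Mpeg1 (8.32, 8.37 and 7.38), were highest there. Mpeg1 is named after its values were seen. Ccr8 and Cx3cr1 were also highest on array 2, with small differences between the CD103+ arrays. Macrophages are known to express Cx3cr1, and their part in its difference was not tested.

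**Figure D5:**
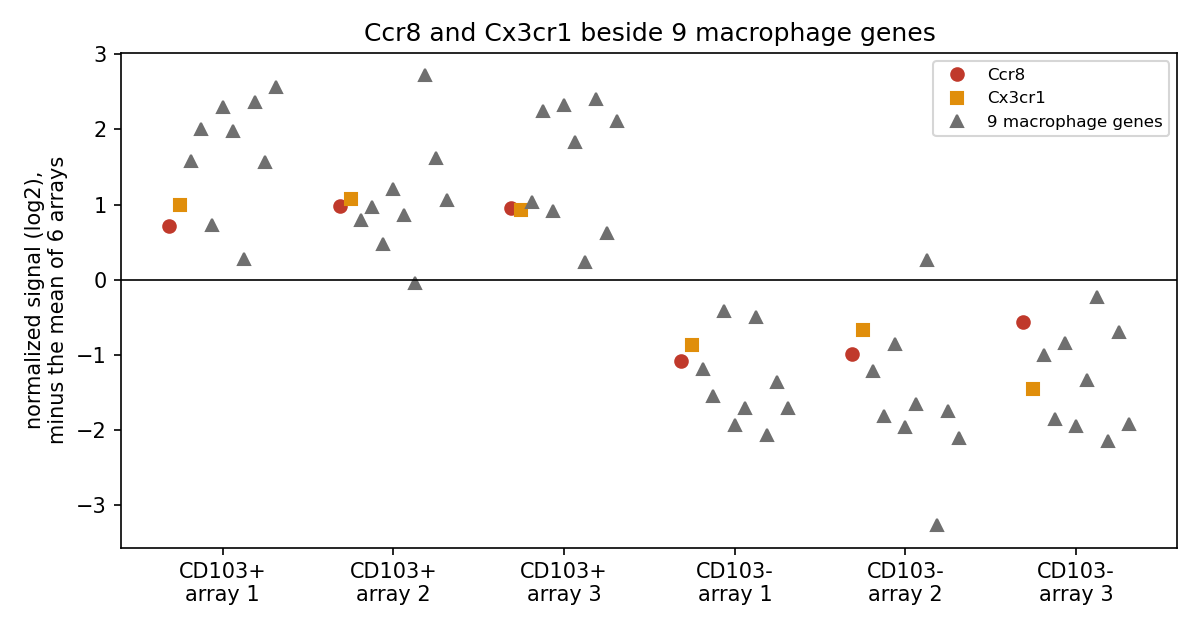
Normalized log2 signal of Ccr8, Cx3cr1 and the 9 tested macrophage genes, in grey, on each array, each gene minus its own mean over 6 arrays. Of the macrophage genes 8 passed the test as higher in CD103+ cells, and among the CD103+ arrays 7 of the 9 are lowest and 2 highest on array 2.

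Gamma delta T cell marks were higher in 3 of 4 tested genes of 8 fixed, beside 1.16% of all tested genes higher. Their summed signal was 5892 to 6932 on the CD103+ arrays and 4648 to 4694 on the CD103- arrays. Trgv4 held most of this sum, at log2 means of 12.55 and 12.17, and did not pass (0.38, adjusted p = 0.263 in limma). The 3 genes that passed, Blk, Sox13 and Il17re, were detected on no CD103- array and so entered the test only through CD103+ cells. With the replicate block, with the dim arrays left out, with median scaling or without any 1 CD103+ array, 1 of the 4 passed, and 0 with array brightness as a covariate. Without CD103- array 2 or 3 it was 2. NK cell marks were higher in 1 of 4 tested genes of 6 fixed, beside 1.16% of all tested genes, and Eomes and Ncr1 were detected on no array. The sums were 20352 to 23085 against 17927 to 19774. Klra3, named after its values were seen, held most of these sums, at log2 means of 14.37 and 14.17, and did not pass (adjusted p = 0.534 in limma). The 1 gene that passed, Klri1, was detected on no CD103- array and so entered the test only through CD103+ cells. The count became 0 without background correction, with median scaling, with the authors' values centred, with array brightness as a covariate, with the replicate block, when the dim arrays were omitted and when any 1 CD103+ array was. Of 6 B cell marks fixed, 2 could be tested and neither passed limma's test (1 at an unadjusted p under 0.05, beside 15.1% of all tested probes). The sums were 179 to 203 against 118 to 224, and Pax5 was detected on no array. These sums lay near background, with 2 of 4 genes detected on each CD103+ array and 0 to 2 on the CD103- arrays. Without CD103- array 1, 1 of the tested B cell marks passed, where 857 of 17462 tested probes did, beside 206 in the main fit. Of 8 marks of immature thymocytes, 4 were tested and 0 passed limma's test, with sums of 1593 to 2048 against 2257 to 2470. At an unadjusted p under 0.05 stood 1 of the 4, Cd8b1, beside 15.1% of all tested probes. Cd8b1 held most of these sums, at log2 means of 10.49 and 10.87. Rag1, the recombinase of immature thymocytes, was detected on all but 1 array, while Ccr9, also a thymocyte gene, was detected on none. Whether these transcripts came from such cells or from the NKT cells themselves was not tested. The part of any of these cells in the receptor values was not tested either.

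The other receptors of the family were mostly at background. Of 14 fixed, 13 were on the array, 3 were detected on at least 1 array and 2 could be tested. They were Ackr4, a scavenger of CCL19, CCL21 and CCL25 (log2 difference 0.82, adjusted p = 0.367), and Ccrl2, an atypical receptor that binds chemerin (0.11, adjusted p = 0.791). Neither passed limma's test, with 0 at an unadjusted p under 0.05. Without CD103- array 1, 1 passed, where 857 of 17462 tested probes did, beside 206 in the main fit. The other Ackr4 probes were detected on no array. The tested Ackr4 probe had 5.92, 6.05 and 6.01 on the CD103+ arrays, below the 6.12 on CD103- array 1. On CD103- arrays 2 and 3 it was not detected, at 4.59 and 4.82. With its undetected arrays set to the lowest normalized signal that any detected probe had there, its log2 difference was 0.23. Ccr10, the third and named here after its values were seen, was detected on 2 CD103+ arrays and so did not enter the main test. With every probe tested it did not pass (adjusted p = 0.185 in limma).

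The ligands of the receptors were also little seen in these cells. Of 16 on the array, 5 were detected at least once, 3 were tested and 0 passed limma's test. At an unadjusted p under 0.05 stood 1 of the 3, beside 15.1% of all tested probes. That gene was Ccl1, the ligand of CCR8. Its log2 signals were 5.66, 6.21 and 5.30 on the CD103+ arrays and 5.38, 4.49 and 4.42 on the CD103- arrays. The groups overlapped at the lowest CD103+ and the highest CD103- array (log2 difference 0.96, SE 0.326, adjusted p = 0.244). The probe was near background: of the CD103- arrays it was detected on array 1 alone. With the undetected arrays set to the lowest normalized signal that any detected probe had there, the log2 difference was 0.21. Ccl25, the thymic ligand of CCR9, was detected on all arrays by its brightest probe, which differed by 0.12 (adjusted p = 0.739).

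The G proteins, kinases, arrestins and exchange factors that act below the receptors did not pass either. Of 24 fixed, 23 were on the array and 19 were tested, and 0 passed limma's test. At an unadjusted p under 0.05 stood 4 of the 19, beside 15.1% of all tested probes. Without CD103- array 1, with array weights, an offset of 50, the stricter detection filter or the authors' values centred, 1 passed as lower, and without background correction 2 did. With the authors' values as deposited 1 passed as higher and 0 as lower. Differences were negative for 14 and positive for 5, with a median of -0.16 beside 0.05 over all genes. The share of negative differences over all genes was not counted. Elmo1, named after its values were seen, counted as positive by its brightest probe (0.14). Its other tested probes lay on both sides, from -0.41 to 0.59. Dock2, the exchange factor through which chemokine receptors activate Rac in lymphocytes, had log2 signals of 8.13, 8.42 and 8.65 on the CD103+ arrays and 9.21, 9.60 and 9.29 on the CD103- arrays. The groups did not overlap, and the log2 difference was -0.97 (SE 0.190, adjusted p = 0.0712). Tiam1, another exchange factor for Rac, lay on the other side, at 1.02 (SE 0.256, adjusted p = 0.137).

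For each receptor that passed, the 3 genes were taken whose log2 values, centred on their own mean, differed least from it over the 6 arrays, as the root-mean-square difference. For Ccr8 these were Rhobtb1 (0.20 log2 units), Nav1 (0.21) and Reck (0.22), with log2 differences between the populations of 1.70, 1.65 and 1.96. Rhobtb1 and Nav1 were detected on no CD103- array. For Cx3cr1 they were S100a4 (0.17), Gas7 (0.18) and Tmem51 (0.19), with log2 differences of 1.85, 2.31 and 1.84. These genes were chosen for their likeness over these arrays, so their differences add no support.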

How the data were processed

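Transcripts of sorted CD103+ and CD103- thymic NKT cells were measured on 3 Illumina arrays each. The authors' deposited intensity values are 1 signal per probe and array, not normalized, per the file headers. Per the file headers each signal comes with a detection p-value, taken here as its test against negative controls. A second deposited table holds log2 values whose background treatment and scaling are not given in the sources used here. Of 45281 probes, 18 with values shifted by text inside the line were left out. Probes were named from the array's annotation, with 1 symbol for 34874 probes, several for 18 and none for 10371.

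Signals were processed with limma 3.58.1 under R 4.3.3, by its neqc function (offset 16, quantile normalization, log2). Probes detected at p under 0.05 on at least 3 of 6 arrays, 17462 in all, were tested with lmFit and eBayes, two-sided, and p-values were adjusted over them by the Benjamini-Hochberg method. The fit was tested on simulated data. A gene was represented by its brightest tested probe. The series design calls the replicates biological, but whether they came from separate mice is not given, so p-values measure the spread between these samples. An exact permutation test of 3 arrays against 3 cannot go below 0.1.

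Replicate numbers were checked for pairing by correlating deviations from the population means between CD103+ and CD103- arrays. The correlation was 0.170, 0.125 and 0.305 for arrays that share a number and -0.231 to 0.0824 for the others. The labels do not state a pairing. Every shared number correlated above 0.1, which leaves a pairing possible and does not establish it. The deviations within a population are taken from the mean of the same arrays, so these correlations are not independent of each other. The main values are therefore those of the unpaired fit, and a fit blocked by replicate number is given among the alternatives.

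The receptors, the gene lists and the tests were chosen with earlier results of these data known. The rule for named genes was all receptor probes, up to 4 called and 2 other genes of each list, and the 3 genes most like each called receptor. Alternatives were no background correction, median scaling over tested probes, the authors' values, an offset of 50, array weights, testing every probe, testing those with detection p under 0.01 throughout a population, the replicate block, the log2 mean signal of each array as a covariate, the bright arrays alone, and leaving out each array in turn. Centring the authors' values on the median over tested probes was added after seeing the data.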

Additional observations from a re-analysis of the deposited data

How the results depend on the processing

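Of 118 receptor values under alternatives, 103 kept their direction and their side of the threshold, 8 kept their direction and lost the call, and 7 changed sign. The 2 receptor probes past the threshold became 1 with median scaling, 0 with array brightness as a covariate, and 0 to 2 when 1 array was left out. The lost calls are those of Ccr8 and Cx3cr1 given in the report. The sign changes were those of Ccr7, to -0.72 with median scaling, -0.59 with array brightness as a covariate, -0.42 with the bright arrays alone, -0.065 without CD103- array 2 and -0.010 with the authors' values centred on all tested probes, and of Ccr2, to 0.010 with the authors' values and 0.024 without CD103- array 1. With 1 array left out Ccr7 ran from -0.065 to 0.51 and Ccr2 from -0.32 to 0.024. Neither gene passed in any of them, and the cause was not tested.

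Over all tested probes the count of 206 became 324 without background correction, 313 with the authors' values, 397 with array weights, 83 with the replicate block, 7 with array brightness as a covariate, 135 with the bright arrays alone, where the single CD103- array is assumed to vary like the CD103+ arrays, and 52 to 857 when 1 array was left out. The replicate block, or pairing, changed no call of a receptor, with 2 probes past the threshold and adjusted p of 0.0341 for Ccr8 and 0.0365 for Cx3cr1. The share of called probes higher in CD103+ cells was 78.6% in the main fit, 90.4% with the replicate block, 63.9% without background correction, 52.9% with median scaling, 68.6% with an offset of 50 and 63.4% with the authors' values centred. In the authors' values the median of all tested probes was 0.13 before centring. Signals near background limit Cx3cr1, Ccr7 and all undetected probes, and an undetected probe does not show that a gene is silent. The probe of the ribosomal protein gene Rpsa, which lies near Ccr8, was detected on no array.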
